A study of Mus musculus with 4 samples.

Results

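Opposite-strand genes are annotated on the strand facing a named gene, and mouse nomenclature gives them the name of that gene followed by "os", with or without a digit. The members described here are all genes of the deposited table whose symbol is the symbol of another gene of the table plus this ending, and whose mean normalized count over the 4 libraries was at least 2. The table holds 52636 genes, of which 52403 could be paired with a symbol. In it 299 genes had a symbol of this form, and 143 of them reached the minimum, with 142 distinct symbols because Tmem147os stands for 2 gene identifiers. The other 156 lay below it, 77 of them at 0 in every library. Frmd8os was just inside the minimum, with a mean of 2.23, and Tvp23bos just outside it, with 1.99. The 143 members face 134 sense genes, and 8 sense genes have more than 1 member, together 17 members. Ube4b has 3.

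Transcripts from the opposite strand are a large class of long noncoding RNA in mammals. Some start from the same promoter region as the sense gene and run away from it, some start inside the sense gene and run against it, and some meet it end to end. Individual cases are known to change the transcription, splicing or stability of the sense RNA in cis, others act elsewhere, and for most no function is known. In the eye, noncoding transcripts facing homeobox genes such as Six3, Otx2 and Vax2 have been described in the developing mouse retina.

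The RNA came from retinas of 3-week-old mice, with 2 libraries from mice carrying the mutation Q344X, which is known from dominantly inherited retinitis pigmentosa, a degeneration of photoreceptors, and 2 libraries from wild-type mice (WT). How the allele was made, its zygosity, and the animals' sex and litter are not stated in the labels. The design text gives 3 replicates per group at the start and 2 animals per group in the end, after low RNA quality and outliers were dealt with, while the protocol for RNA extraction lists 3 mice with Q344X and 2 WT mice. Polyadenylated RNA was sequenced from directional libraries, so an opposite-strand RNA without a poly-A tail would not be captured.

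With the smallest value above 0 in each library taken as 1 read, libraries held between 18452679 and 19706573 reads in genes. On that basis 1 read was worth between 0.960 and 1.04 normalized counts. These read numbers are inferred from the values, and 2 columns did not pass the check of recovered reads. Marker genes of retinal and other cell types were read, and no marker listed was at 0 in all libraries. This held for lens, blood and skeletal muscle markers too, so it does not test the retinal labels. The 8 rod markers summed to 373895 and 410836 in Q344X, against 947829 and 1081030 in WT, and 2 of the 8 fell. The 5 cone markers summed to 9475 and 9624 in Q344X, against 24328 and 22709 in WT, and 4 of the 5 fell. The 6 markers of retinal pigment epithelium summed to 3831 and 4865 in Q344X, against 2644 and 2910 in WT, and 3 of the 6 rose. The 6 lens markers summed to 126560 in Q344X replicate 1 and 4305 in Q344X replicate 2, against 140284 and 158741 in WT, so that Q344X replicate 2 stood apart. In bulk tissue, fewer cells of a type and less RNA per cell cannot be told apart, and the part that cell composition has in the values below was not tested.

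Of the 143 members, 114 carry the GENCODE type antisense, 8 processed transcript, 7 lincRNA and 3 bidirectional promoter lncRNA. The label noncoding does not hold for 9 members that GENCODE lists as protein coding, among them Slc7a6os, Cebpzos, Brd3os, Wdr83os, Crxos, Ccpg1os, Cdiptos and Trpc5os. The members lie on 20 chromosomes. The largest arrangement, with 51 members, was head to head with overlapping gene spans, and 32 further members were head to head with the spans apart. Another 37 lay inside the span of the sense gene and 4 spanned it. The ends of the genes overlapped tail to tail in 14 members and lay apart tail to tail in 5. In 53 members no exonic base was shared with the sense gene. The exonic length had a median of 1683 bases in members and 5097.5 bases in sense genes.

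Most members were minor transcripts beside their sense genes. Their mean normalized count had a median of 15.7 and ran between 2.23 and 2537, while the sense genes had a median of 653. Per exonic base, the level of a member had a median of 8.09% of its sense gene's level in Q344X and 11.0% in WT. In 23 pairs the member stood above the sense gene per exonic base in WT, among them Vax2os, Pitpnm2os2, Slc7a6os, Cebpzos and Ccpg1os.

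The sources used here do not give the strand setting of the counting, which bears on members that share exons with the sense gene. Counting without strand that discards reads falling on both genes would leave 0 reads for a gene lying wholly under opposite exons. By GENCODE release M21, 472 genes of the table have every exonic base under exons of the other strand, and 280 of them were above 0. For 126 of them the opposite gene had a mean of at least 1000, and the median value was then 2.74 normalized counts, or 0.136% of the opposite gene, with a 75th percentile of 0.370%. No member lies wholly under opposite exons. Of the members that share exons with the sense gene, 10 had less than 0.370% of its level and 2 less than 0.136%. At such levels, reads of the sense gene assigned to the wrong strand and reads of the member cannot be told apart.

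A difference was called at an adjusted p under 0.05, by limma's moderated test on log2(normalized count + 1) over all 16833 genes with a mean of at least 10. Over all genes tested, 9.1% were lower and 5.46% higher in Q344X. Among the 85 members that reached this mean, 16 fell (18.8%), 3 rose (3.53%) and 66 passed in neither direction. Their median log2 fold change was -0.13, beside 0.02 over all genes tested. The 441 other genes of GENCODE type antisense that were tested gave 17.9% lower and 4.08% higher, so the share of falling members was close to that of antisense genes outside the naming rule. Protein-coding genes outside the rule gave 8% lower and 5.64% higher. Among the members that fell are Ube4bos1, Ube4bos3, Pitpnm2os2, Map2k3os, Uckl1os, Med9os, Crxos, Ppp1r18os, Dbhos, Atad3aos, Etaa1os, Ccpg1os, Vax2os, Stamos and Otx2os1, and those that rose are Pax6os1, Dhrs13os and Tmem74bos. Ube4bos1, Ube4bos3, Map2k3os, Ppp1r18os, Atad3aos and Etaa1os had a Q344X mean under 10, and Tmem74bos a WT mean under 10. They reached the minimum mean through the genotype in which they are high, so the filter itself favours their difference. With 1 library left out, the spread within groups comes from the intact pair and from limma's prior alone, so a call can be lost with the fold change kept. Without Q344X replicate 1 the count was 23 lower and 7 higher, without WT replicate 1 it was 10 lower and 3 higher, and without WT replicate 2 it was 13 lower and 1 higher. Without Q344X replicate 2, the library with few lens transcripts, it was 16 lower and 2 higher.

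**Figure D1:**
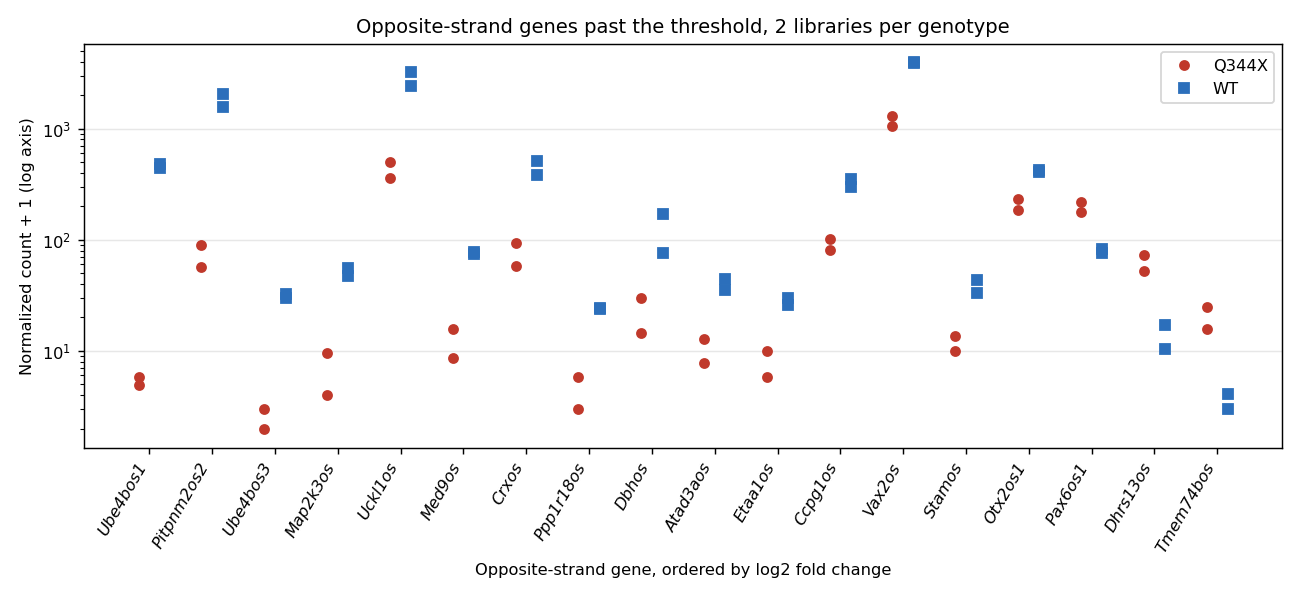
Normalized count plus 1 on a log axis for 18 of the 19 opposite-strand genes past the threshold, with 1 point per library, Q344X as circles and WT as squares. The 18 genes were selected by their calls, and the 2 genotypes do not overlap in any of them. The widest separation is that of Ube4bos1, at 3.96 and 4.80 in Q344X and 437 and 476 in WT.

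Few sense genes were called together with their member. Of the 134 sense genes 126 were tested, with 5 lower (3.97%), 5 higher (3.97%) and a median log2 fold change of -0.02. Over all genes tested the shares were 9.1% lower and 5.46% higher, and over protein-coding genes outside the rule 8% and 5.64%. The sense genes thus had a smaller share lower than either set, a difference that was not tested. Uckl1os and Uckl1 formed the 1 pair in which both genes were called. Without Q344X replicate 1 the sense counts were 15 lower and 16 higher, without Q344X replicate 2 they were 11 and 5, without WT replicate 1 they were 1 and 2, and without WT replicate 2 they were 2 and 3. The change of the opposite-strand gene relative to its sense gene was tested as the difference of their log2 values. That test was fitted over 2410 opposite-strand pairs of the table, 82 of them pairs of the naming rule. In the 82 pairs the ratio fell in 18 (22.0%) and rose in 4 (4.88%), beside 18.3% lower and 9.38% higher over all 2410 pairs, so the share of falling ratios was near that of opposite-strand pairs in general and the share of rising ones below it, a difference that was not tested. The 2328 pairs outside the naming rule gave 18.2% lower and 9.54% higher. The 4 higher ratios became 9 without Q344X replicate 1 and 2 without either WT library. All 18 called members whose pair was tested also had a called ratio, and the ratio contains the member's own values, so the calls are not independent.

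**Figure D2:**
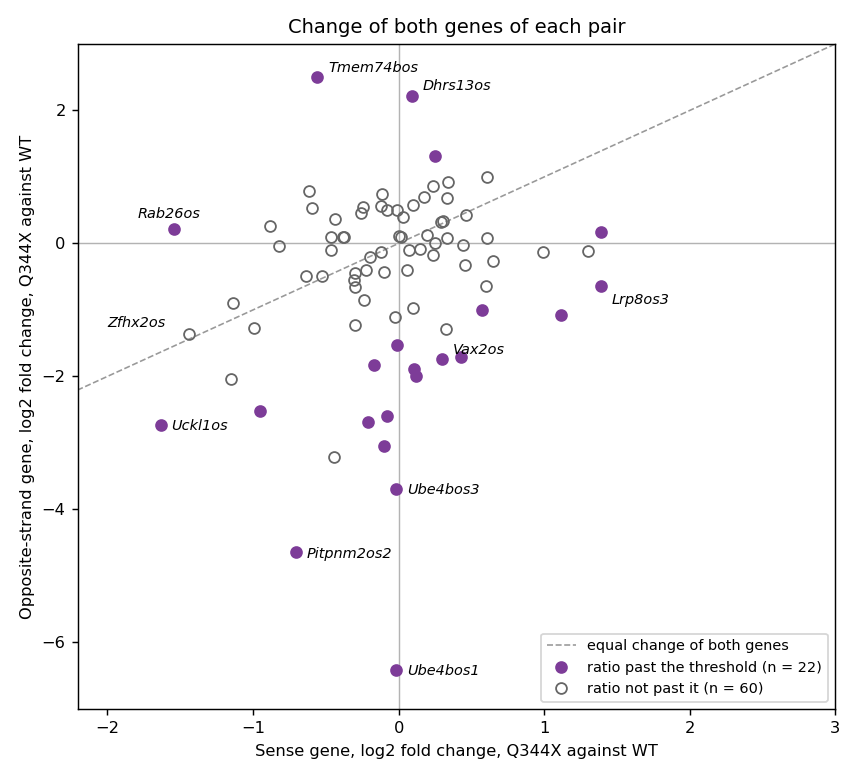
Log2 fold change, Q344X against WT, of the sense gene (horizontal axis) and of the opposite-strand gene (vertical axis) in the 82 pairs tested, with filled points where the ratio passed the threshold and a dashed line for an equal change of both. Ube4bos1 lies at -6.41 with Ube4b at -0.02, and Uckl1os lies in the lower left with Uckl1 at -1.63.

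The largest log2 fold change among the tested members was that of Ube4bos1, which starts inside the gene for Ube4b, a ubiquitin ligase that extends ubiquitin chains. Ube4bos1 (ENSMUSG00000085819, plus strand, chr4:149347885-149365277 of GRCm38) had 3.96 and 4.80 normalized counts in Q344X, against 437 and 476 in WT. The Q344X libraries thus held a handful of reads each, far below both WT libraries (log2 fold change -6.41 ± 0.28 SE, adjusted p = 0.00274, limma). Ube4b itself had 2000 and 1828 in Q344X, against 1918 and 1955 in WT, a log2 fold change of -0.02 (adjusted p = 0.947, limma). The ratio of Ube4bos1 to Ube4b fell by 6.40 on the log2 scale (adjusted p = 7.22e-05, limma). Ube4bos3, which lies 11988 bases away on the same strand, had 1.98 and 0.960 in Q344X, against 31.2 and 29.1 in WT (log2 fold change -3.69 ± 0.52 SE, adjusted p = 0.0137, limma). Ube4bos2, between them, was under the minimum for testing, with 0 and 0 in Q344X, against 15.6 and 22.1 in WT, which is at least 12.9-fold lower when 3 reads over the Q344X group are taken as the floor. The 3 members share a locus and are not independent cases. Ube4bos1 stood at 0.198% and 0.262% of Ube4b in Q344X, against 22.8% and 24.4% in WT, and 15.6% of its exonic bases lie under Ube4b exons. The Q344X values are thus within the range found above for genes lying wholly under opposite exons, and the WT values are far above it.

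Pitpnm2os2 (ENSMUSG00000089842, plus strand, chr5:124194907-124200346) also lies inside its sense gene but shares no exonic base with it. It had 55.4 and 89.3 normalized counts in Q344X, against 2050 and 1562 in WT (log2 fold change -4.65 ± 0.29 SE, adjusted p = 0.00342, limma). Both Q344X libraries were far below both WT libraries. Pitpnm2, which encodes a membrane-associated phosphatidylinositol transfer protein, had 1099 and 1242 in Q344X, against 1710 and 2123 in WT, and did not pass the threshold (log2 fold change -0.70, adjusted p = 0.0632, limma). Per exonic base, Pitpnm2os2 stood at 16.96% and 24.2% of Pitpnm2 in Q344X, against 403% and 247% in WT, so the order of the 2 strands differed between the genotypes. The ratio fell by 3.94 on the log2 scale (adjusted p = 0.00039, limma). In all, 14 members inside their sense gene were tested, 3 fell (21.4%) and 0 rose by limma. Those that fell are Ube4bos1, Ube4bos3 and Pitpnm2os2, and Ube4bos1 and Ube4bos3 share a locus. The share lower was 9.1% over all genes tested and 17.9% over the other antisense genes, near that of these members.

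The pair of Uckl1os (ENSMUSG00000010492, plus strand, chr2:181578480-181585170) and Uckl1, a uridine-cytidine kinase-like gene, was lower on both strands. Uckl1os had 356 and 499 normalized counts in Q344X, against 2423 and 3249 in WT (log2 fold change -2.73 ± 0.25 SE, adjusted p = 0.00551, limma). Uckl1 had 1738 and 1735 in Q344X, against 5210 and 5581 in WT (log2 fold change -1.63 ± 0.17 SE, adjusted p = 0.00682, limma). The groups overlapped for neither gene. Uckl1os shares 18.2% of its exonic bases with Uckl1 exons. The ratio fell by 1.10 on the log2 scale (adjusted p = 0.0225, limma), a call that was lost without WT replicate 1 (adjusted p = 0.0700) or WT replicate 2 (adjusted p = 0.185).

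The members that lie head to head and apart gave 9 lower and 1 higher of 23 tested (39.1% and 4.35%), with a median log2 fold change of -0.64. In the head-to-head overlapping arrangement 4 of 33 fell (12.1%) and 2 rose. Tail to tail, 0 of 8 overlapping and 0 of 5 separate members passed by limma in either direction, while at an unadjusted p under 0.05 the counts were 3 lower and 0 higher for the overlapping and 1 lower and 2 higher for the separate ones. These shares stand beside 9.1% lower and 5.46% higher over all genes tested, and the differences between arrangements were not tested.

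**Figure D3:**
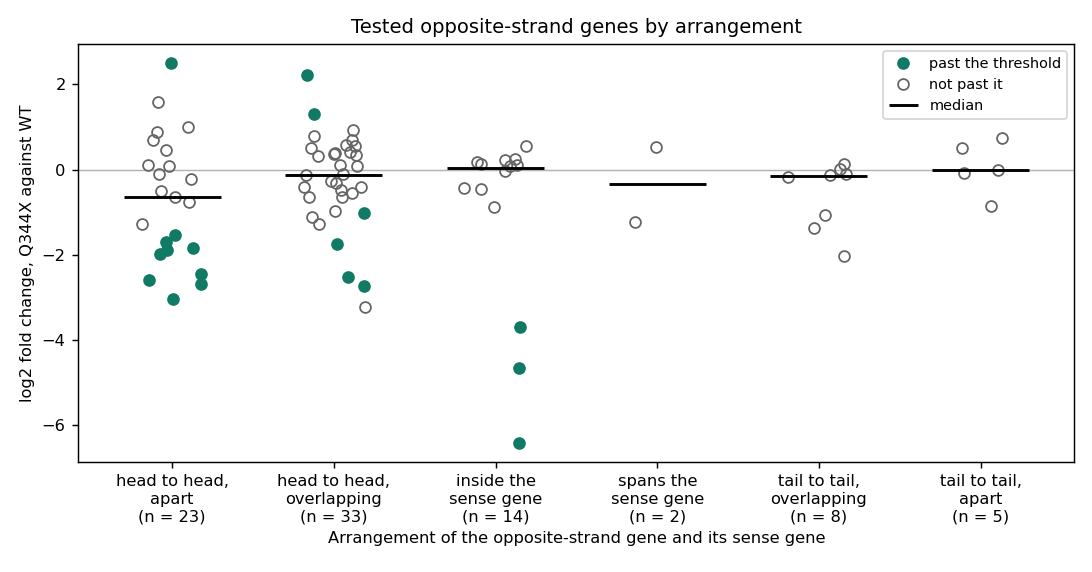
Log2 fold change, Q344X against WT, of the 85 tested opposite-strand genes by their arrangement with the sense gene, with filled points past the threshold and bars at the medians. The median is -0.64 in the 23 head-to-head pairs that lie apart and -0.13 in the 33 that overlap, and the lowest points are the 3 called members inside their sense gene.

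Among head-to-head pairs lying apart, 20 have their starts at most 300 bases from each other, the layout of a bidirectional promoter. Of these members 14 were tested, 6 fell (42.9%) and 0 rose by limma (at an unadjusted p under 0.05, 8 lower and 1 higher), and the median log2 fold change was -1.02. With head-to-head pairs whose spans overlap included, 29 members have starts this close. There 18 were tested, the same 6 fell (33.3%) and 0 rose by limma, with a median log2 fold change of -0.70. The share lower was 9.1% over all genes tested and 17.9% over the other antisense genes, and the difference from these was not tested. Of the 20 sense genes 19 were tested, with 0 lower and 1 higher (5.26%) by limma, beside 9.1% and 5.46% over all genes tested. At an unadjusted p under 0.05, 1 was lower and 5 were higher. With so few sense genes, the absence of lower ones was not tested against these shares. The 6 members that fell are Map2k3os, Med9os, Atad3aos, Etaa1os, Ccpg1os and Stamos. Among them, Map2k3os, Atad3aos and Etaa1os reached the minimum mean for testing through their WT values. In all 6 the start of the sense gene lies inside the promoter window of the member, which largely follows from choosing pairs by close starts. The windows of the 3 of these 6 with the lowest adjusted p are shown. Beside them stand those of the abundant Pitpnm2os2 and Vax2os, whose windows hold no sense start. Each window runs from 250 bases before to 50 bases after the start of the member, 5′ to 3′ on the strand of the member, and capitals mark matches to the searched motifs on either strand.
Map2k3os: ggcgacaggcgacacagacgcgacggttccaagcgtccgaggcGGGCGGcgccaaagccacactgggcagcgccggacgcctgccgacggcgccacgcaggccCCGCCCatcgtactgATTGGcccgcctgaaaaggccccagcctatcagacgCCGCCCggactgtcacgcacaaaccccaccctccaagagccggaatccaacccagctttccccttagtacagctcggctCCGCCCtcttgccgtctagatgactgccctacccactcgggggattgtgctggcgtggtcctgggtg
Med9os: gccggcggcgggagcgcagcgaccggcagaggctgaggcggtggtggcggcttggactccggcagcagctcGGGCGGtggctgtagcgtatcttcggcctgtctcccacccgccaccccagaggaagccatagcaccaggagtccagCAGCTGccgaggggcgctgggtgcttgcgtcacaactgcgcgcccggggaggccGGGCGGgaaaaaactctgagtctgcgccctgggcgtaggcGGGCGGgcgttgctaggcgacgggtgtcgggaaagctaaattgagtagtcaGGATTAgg
Ccpg1os: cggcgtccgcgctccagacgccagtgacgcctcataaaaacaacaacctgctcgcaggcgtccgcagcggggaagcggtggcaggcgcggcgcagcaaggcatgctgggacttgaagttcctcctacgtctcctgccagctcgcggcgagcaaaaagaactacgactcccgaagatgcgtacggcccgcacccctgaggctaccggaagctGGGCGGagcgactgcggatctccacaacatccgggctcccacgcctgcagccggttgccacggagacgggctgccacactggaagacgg
Pitpnm2os2: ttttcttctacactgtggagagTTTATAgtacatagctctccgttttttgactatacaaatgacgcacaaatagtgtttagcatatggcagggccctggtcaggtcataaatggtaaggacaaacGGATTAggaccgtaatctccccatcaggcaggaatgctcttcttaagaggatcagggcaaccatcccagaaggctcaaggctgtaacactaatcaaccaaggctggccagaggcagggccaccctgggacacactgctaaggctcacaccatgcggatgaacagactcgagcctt
Vax2os: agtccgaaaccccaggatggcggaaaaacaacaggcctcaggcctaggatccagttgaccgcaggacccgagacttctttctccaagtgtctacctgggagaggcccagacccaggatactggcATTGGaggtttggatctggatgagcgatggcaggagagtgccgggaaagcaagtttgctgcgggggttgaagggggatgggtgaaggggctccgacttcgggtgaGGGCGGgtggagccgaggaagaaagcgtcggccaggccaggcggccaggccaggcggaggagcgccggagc
These are chr11:60931818-60932117 (minus strand), chr11:59948098-59948397 (minus strand), chr9:72985327-72985626 (minus strand), chr5:124194650-124194949 (plus strand) and chr6:83712152-83712451 (minus strand), from RefSeq on GRCm38.p6. The sense start lies at base 85 of the Map2k3os window, base 192 of the Med9os window and base 198 of the Ccpg1os window. GC content was 67.7%, 68.7% and 66.0% in the first 3, 48.7% in the Pitpnm2os2 window and 63.0% in the Vax2os window.

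RefSeq gave such a window for 93 of the 143 members, 12 of them members that fell. The sense start lay inside the window of 18 members, and 6 of these are among the 12, the same 6 that were chosen above by their close starts. The GC box GGGCGG, matched on both strands, occurred in 6 of the 12 and in 42 of the 93, beside 35.7% of all 32851 promoter windows of the table. The core TAATCC, to which the photoreceptor factor CRX binds, occurred in 3 of the 12 (Pitpnm2os2, Med9os and Dbhos) and in 7 of the 93, beside 7.06% of all windows. The homeodomain core TAATTA was in 0 of the 12 and 4 of the 93, beside 5.29%. The CCAAT box was in 6 of the 12, beside 37.4%, the E-box CAGCTG in 4, beside 16.3%, TGCTGA, part of the site of NRL and other MAF factors, in 3, beside 19.5%, and TATAAA in 1, beside 13.6%. A match is a description of the letters in the window.

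Map2k3os starts 166 bases from Map2k3, a kinase that activates p38 MAP kinases. It had 2.97 and 8.64 normalized counts in Q344X, against 45.8 and 55.1 in WT (log2 fold change -3.05 ± 0.53 SE, adjusted p = 0.0231, limma). Map2k3 had 269 and 333 in Q344X, against 288 and 357 in WT, so that its groups overlapped while those of the member did not. The ratio fell by 2.95 on the log2 scale (adjusted p = 0.00500, limma).

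Med9os starts 64 bases from Med9, a subunit of the Mediator complex that links transcription factors to RNA polymerase II. It had 14.9 and 7.68 normalized counts in Q344X, against 72.8 and 76.2 in WT (log2 fold change -2.69 ± 0.40 SE, adjusted p = 0.0159, limma). Med9 had 567 and 776 in Q344X, against 691 and 851 in WT, with overlapping groups. Ccpg1os starts 47 bases from Ccpg1, a receptor for autophagy of the endoplasmic reticulum, and is listed as protein coding. It had 80.2 and 101 in Q344X, against 354 and 296 in WT (log2 fold change -1.84 ± 0.23 SE, adjusted p = 0.0109, limma). Ccpg1 had 513 and 451 in Q344X, against 599 and 490 in WT. The ratios fell by 2.48 for Med9os and 1.66 for Ccpg1os on the log2 scale.

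The other 3 members with close starts were at low levels. Atad3aos, 85 bases from the gene for the mitochondrial ATPase Atad3a, had 11.9 and 6.72 in Q344X, against 43.7 and 34.1 in WT (log2 fold change -1.99 ± 0.43 SE). Etaa1os, 95 bases from the gene for Etaa1, an activator of the ATR kinase, had 8.91 and 4.80 in Q344X, against 24.96 and 29.1 in WT (log2 fold change -1.88 ± 0.47 SE). Stamos, 164 bases from the gene for Stam, an adaptor of endosomal sorting, had 8.91 and 12.5 in Q344X, against 32.2 and 42.1 in WT (log2 fold change -1.71 ± 0.39 SE). Their adjusted p-values by limma were 0.0364, 0.0493 and 0.0412. With 1 library left out, the call of Atad3aos ended without WT replicate 1 (adjusted p = 0.125, log2 fold change -1.82), and that of Stamos without WT replicate 1 (0.0867, log2 fold change -1.90) or 2 (0.167, log2 fold change -1.52). That of Etaa1os ended without Q344X replicate 2 (0.0737, log2 fold change -1.50), WT replicate 1 (0.111, log2 fold change -1.99) or WT replicate 2 (0.148, log2 fold change -1.78). Stam had 2058 and 2000 in Q344X, against 1550 and 1462 in WT, higher in each Q344X library but not past the threshold (log2 fold change 0.43, adjusted p = 0.130, limma). Atad3a had 675 and 652 in Q344X, against 597 and 624 in WT (log2 fold change 0.12, adjusted p = 0.654, limma). Etaa1 had 419 and 451 in Q344X, against 404 and 403 in WT (log2 fold change 0.11, adjusted p = 0.703, limma).

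**Figure D4:**
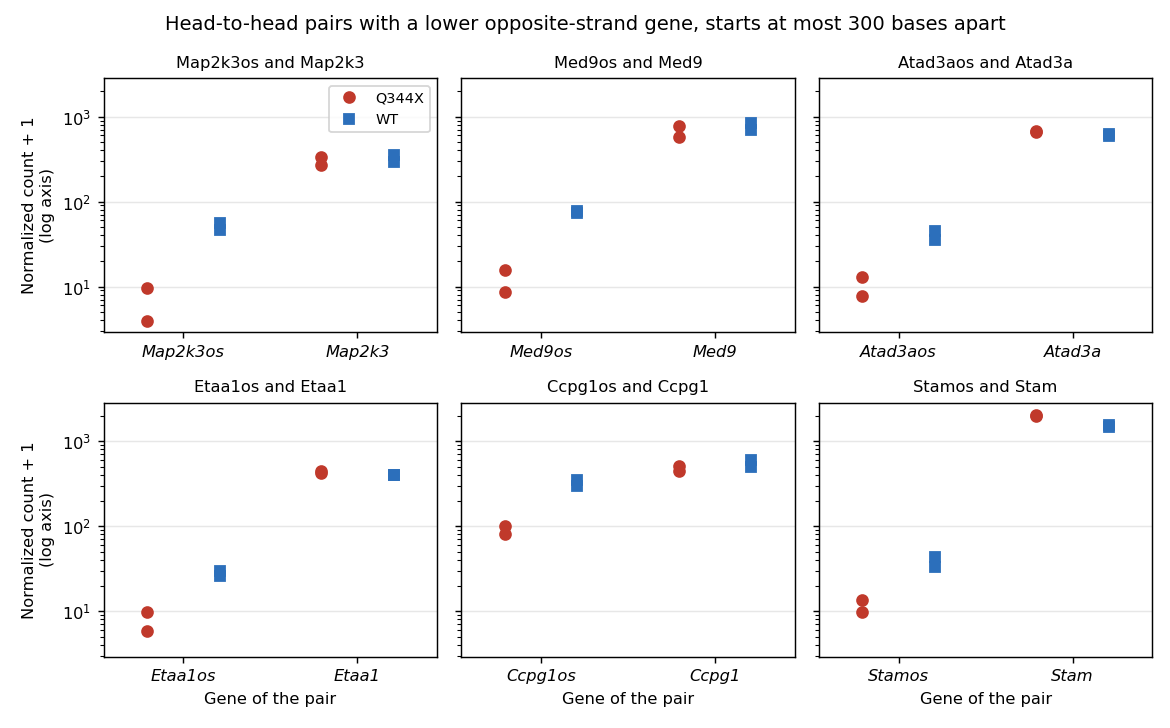
Normalized count plus 1 on a log axis, with 1 point per library, for both genes of the 6 head-to-head pairs with starts at most 300 bases apart in which the opposite-strand gene fell; Q344X libraries are circles and WT libraries squares. The panels were chosen by the call of the opposite-strand gene, so its separation follows from that choice. The sense genes lie closer together, as for Map2k3 at 269 and 333 in Q344X and 288 and 357 in WT. The genotypes overlap for Map2k3, Med9 and Ccpg1, while Atad3a, Etaa1 and Stam are higher in each Q344X library without a call.

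Of the 10 members that face a transcription factor of eye development and had a mean of at least 10, Crxos, Vax2os and Otx2os1 fell (30%) and Pax6os1 rose (10%), beside 9.1% lower and 5.46% higher over all genes tested and 17.9% and 4.08% over the other antisense genes. Of the 10 factors 0 passed by limma in either direction (at an unadjusted p under 0.05, 0 lower and 1 higher). Vax2os (ENSMUSG00000085794, minus strand, chr6:83692806-83712201), the member with the highest mean, had 1048 and 1291 normalized counts in Q344X, against 3859 and 3948 in WT (log2 fold change -1.75 ± 0.19 SE, adjusted p = 0.00786, limma). Vax2, a homeobox factor of the ventral eye, had 451 and 913 in Q344X, against 424 and 643 in WT, with overlapping groups. Per exonic base, Vax2os stood at 53.4% and 32.5% of Vax2 in Q344X, against 209% and 141% in WT, so that it was the more abundant strand in WT and the less abundant one in Q344X. The ratio fell by 2.04 on the log2 scale (adjusted p = 0.00463, limma).

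Crxos, a protein-coding homeobox gene whose start lies 2649 bases from that of Crx, had 93.1 and 56.6 normalized counts in Q344X, against 515 and 382 in WT (log2 fold change -2.59 ± 0.31 SE, adjusted p = 0.00975, limma). Crx, the cone-rod homeobox factor that drives photoreceptor genes, had 22990 and 20436 in Q344X, against 22578 and 23207 in WT (log2 fold change -0.08, adjusted p = 0.788, limma). The groups overlapped for Crx and did not for Crxos, and the ratio of Crxos to Crx fell by 2.52 on the log2 scale (adjusted p = 0.00153, limma).

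Otx2os1 and Pax6os1 moved in opposite directions. Otx2os1 had 185 and 230 in Q344X, against 427 and 406 in WT (log2 fold change -1.01 ± 0.21 SE, adjusted p = 0.0319, limma). Otx2, a homeobox factor of photoreceptors, bipolar cells and pigment epithelium, had 7262 and 6661 in Q344X, against 4888 and 4457 in WT, without passing the threshold (log2 fold change 0.58, adjusted p = 0.0755, limma), and the ratio fell by 1.58 (adjusted p = 0.00500, limma). Pax6os1 had 176 and 219 in Q344X, against 82.2 and 75.2 in WT (log2 fold change 1.31 ± 0.23 SE, adjusted p = 0.0243, limma). Pax6, a paired-box factor kept in amacrine and ganglion cells, had 8349 and 6903 in Q344X, against 7201 and 5631 in WT, with overlapping groups, and the ratio rose by 1.06 (adjusted p = 0.0306, limma). The 6 ganglion cell markers summed to 19855 and 23728 in Q344X, against 12409 and 14262 in WT, with 1 of the 6 higher. The 4 amacrine markers summed to 17019 and 14211 in Q344X, against 17358 and 15157 in WT, with 1 of the 4 lower. Pax6 itself is among these 4, so that sum is not independent of the sense gene. The part of either cell type in the rise of Pax6os1 was not tested. Otx2os1 lost its call without WT replicate 1 (0.185) or 2 (0.123), with log2 fold changes of -0.97 and -1.05, and Pax6os1 likewise (0.0684 and 0.0814), with 1.37 and 1.25; the Pax6os1 ratio lost it without Q344X replicate 2 (0.0690) and without WT replicate 1 (0.200) or 2 (0.0824).

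**Figure D5:**
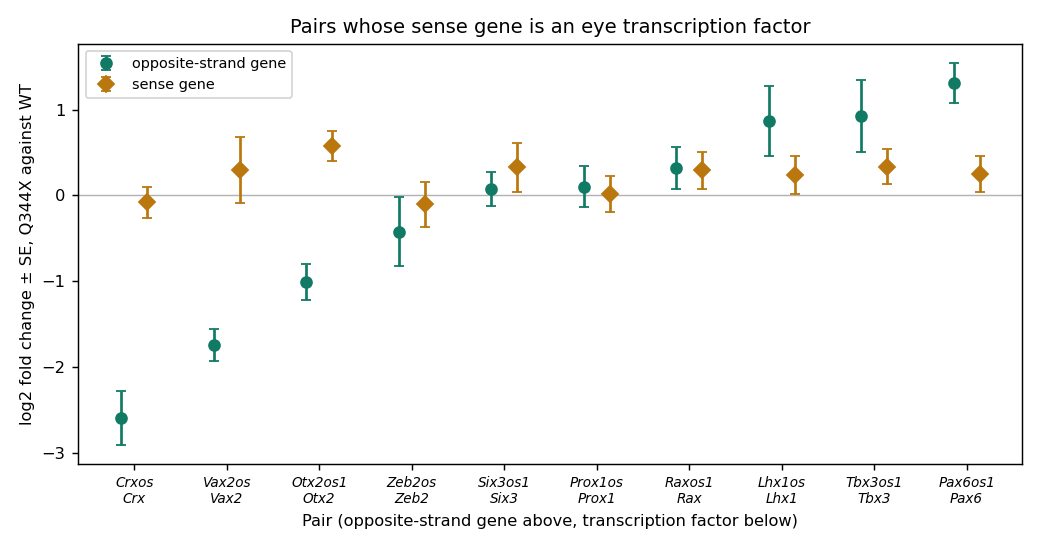
Log2 fold change ± SE, Q344X against WT, of the opposite-strand gene (circle) and the sense gene (diamond) in the 10 pairs whose sense gene is an eye transcription factor, ordered by the opposite-strand gene. Crxos lies at -2.59 with Crx at -0.08, and Pax6os1 at 1.31 with Pax6 at 0.25.

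The remaining 6 members of this set did not pass the threshold. Six3os1, which faces the forebrain and eye factor Six3, had 2458 and 2020 in Q344X, against 2291 and 1946 in WT (log2 fold change 0.08 ± 0.20 SE). Prox1os had 211 and 184 in Q344X, against 159 and 212 in WT, Raxos1 133 and 133 in Q344X, against 122 and 93.2 in WT, and Zeb2os 24.8 and 42.2 in Q344X, against 35.4 and 54.1 in WT. Lhx1os had 41.6 and 85.4 in Q344X, against 33.3 and 31.1 in WT (log2 fold change 0.87, adjusted p = 0.189, limma), and Tbx3os1 had 58.4 and 37.4 in Q344X, against 32.2 and 18.0 in WT (log2 fold change 0.93, adjusted p = 0.180, limma). The groups did not overlap for Lhx1os, Tbx3os1 and Raxos1, and they overlapped for Prox1os, Zeb2os and Six3os1. How often groups separate over all genes was not counted, so this is no result about these members.

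Further members that fell face enzymes and regulators of other kinds. Dbhos had 28.7 and 13.4 normalized counts in Q344X, against 168 and 74.2 in WT (log2 fold change -2.45 ± 0.53 SE, adjusted p = 0.0363, limma), a call lost without WT replicate 1 (0.0687). Dbh, which makes noradrenaline from dopamine, was close to the floor with 5.94 and 6.72 in Q344X, against 3.12 and 3.01 in WT, and was not tested. Per exonic base, Dbhos stood at 324% and 134% of Dbh in Q344X, against 3616% and 1652% in WT, above it in every library. Ppp1r18os had 1.98 and 4.80 in Q344X, against 22.9 and 23.1 in WT (log2 fold change -2.53 ± 0.54 SE, adjusted p = 0.0355, limma). Ppp1r18, a regulator of protein phosphatase 1, had 122 and 174 in Q344X, against 275 and 290 in WT (log2 fold change -0.95, adjusted p = 0.0540, limma). Ppp1r18os lost its call without WT replicate 1 (0.0684) or 2 (0.0655). Its ratio fell by 1.58 (adjusted p = 0.0435, limma), a call lost without Q344X replicate 1 (0.103) or WT replicate 1 (0.166) or 2 (0.127), and with a pseudocount of 5, where it fell by 0.83 (0.137).

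Besides Pax6os1, 2 members rose. Dhrs13os had 51.5 and 72.0 normalized counts in Q344X, against 9.36 and 16.0 in WT (log2 fold change 2.22 ± 0.41 SE, adjusted p = 0.0253, limma). Dhrs13, a short-chain dehydrogenase, had 206 and 348 in Q344X, against 217 and 292 in WT, with the Q344X values on either side of the WT ones. Tmem74bos had 14.9 and 24.0 in Q344X, against 3.12 and 2.01 in WT (log2 fold change 2.50 ± 0.55 SE, adjusted p = 0.0372, limma). Tmem74b had 31.7 and 26.9 in Q344X, against 38.5 and 49.1 in WT (log2 fold change -0.56, adjusted p = 0.264, limma). The ratios rose by 2.13 for Dhrs13os and 3.06 for Tmem74bos. The call of Tmem74bos was lost without Q344X replicate 2 (0.109) or WT replicate 2 (0.0568).

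Of the 8 members with the highest means, Vax2os, Uckl1os and Pitpnm2os2 fell, and Six3os1, Rab10os, Slc7a6os, Fam120aos and Cebpzos did not pass. Rab10os, at the tail of the gene for the trafficking GTPase Rab10, had 1041 and 1096 in Q344X, against 1212 and 1193 in WT (log2 fold change -0.17 ± 0.17 SE). Slc7a6os had 994 and 1199 in Q344X, against 808 and 732 in WT (log2 fold change 0.50, adjusted p = 0.123, limma), and Fam120aos had 763 and 964 in Q344X, against 523 and 535 in WT (log2 fold change 0.70, adjusted p = 0.0670, limma). Cebpzos had 373 and 694 in Q344X, against 425 and 606 in WT, with the 2 replicates of each genotype far apart.

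Apart from Uckl1, 9 sense genes were called, and 6 of these had members that reached the minimum mean of 10, without a call by limma. Lrp8, a receptor for reelin and apolipoprotein E, had 3358 and 2924 in Q344X, against 1208 and 1183 in WT (log2 fold change 1.39 ± 0.17 SE, adjusted p = 0.0103, limma). Lrp8os2 had 40.6 and 30.7 in Q344X, against 33.3 and 29.1 in WT, and Lrp8os3 had 32.7 and 18.2 in Q344X, against 31.2 and 48.1 in WT, neither past the threshold. Their ratios to Lrp8 fell by 1.21 (adjusted p = 0.0271, limma) and 2.03 (adjusted p = 0.00780, limma). The first was lost without Q344X replicate 2 (0.0536) and without WT replicate 1 (0.172) or 2 (0.0895). Rbm3, a cold-inducible RNA-binding protein, had 3543 and 5354 in Q344X, against 1875 and 1664 in WT (log2 fold change 1.30, adjusted p = 0.0260, limma), while Rbm3os had 13.9 and 8.64 in Q344X, against 15.6 and 9.02 in WT. Abhd11 rose by 0.99 (adjusted p = 0.0253, limma), and Abhd11os had 37.6 and 54.7 in Q344X, against 44.7 and 55.1 in WT. Srrm4, a neural splicing factor, rose by 0.95 (adjusted p = 0.0304, limma) and the muscle myosin chaperone Unc45b by 2.398 (adjusted p = 0.0402, limma); Unc45b had 23.8 and 16.3 in Q344X, against 2.08 and 4.01 in WT.

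Zfhx2, a zinc-finger homeobox gene, had 178 and 140 in Q344X, against 461 and 402 in WT (log2 fold change -1.44 ± 0.22 SE, adjusted p = 0.0164, limma). Its partner Zfhx2os had 64.3 and 23.0 in Q344X, against 128 and 80.2 in WT (log2 fold change -1.37, adjusted p = 0.129, limma), the ratio changed by 0.07 on the log2 scale, and 73% of the exonic bases of Zfhx2os lie under Zfhx2 exons. Hk1, a hexokinase, had 8795 and 8936 in Q344X, against 13936 and 17582 in WT (log2 fold change -0.82, adjusted p = 0.0450, limma), while Hk1os had 19.8 and 23.0 in Q344X, against 13.5 and 35.1 in WT. Prox2 fell by 1.15 (adjusted p = 0.0438, limma), and Prox2os had 12.9 and 5.76 in Q344X, against 49.9 and 30.1 in WT, just short of the threshold (log2 fold change -2.04, adjusted p = 0.0515, limma). Taco1, an activator of mitochondrial translation, fell by 1.25 (adjusted p = 0.0189, limma). Leaving out 1 library ended the calls of 8 of the 10 sense genes, all but Uckl1 and Lrp8, with adjusted p-values up to 0.311 for Hk1 without WT replicate 2.

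In 2 further pairs the ratio passed although neither gene did. Ccdc142os had 64.3 and 39.4 in Q344X, against 118 and 98.3 in WT, while Ccdc142 had 20.8 and 11.5 in Q344X, against 6.24 and 7.02 in WT, and the ratio fell by 2.19 (adjusted p = 0.0174, limma). Rab26os had 66.3 and 62.4 in Q344X, against 62.4 and 49.1 in WT, while Rab26, a GTPase of secretory vesicles, had 12.9 and 15.4 in Q344X, against 54.1 and 34.1 in WT, and the ratio rose by 1.76 (adjusted p = 0.0330, limma). The first was lost without WT replicate 1 (0.0655), the second without Q344X replicate 1 (0.0776), WT replicate 1 (0.150) or WT replicate 2 (0.0586). Fgf2os, opposite the growth factor gene Fgf2 and named after its values were seen, had one of the larger changes without a call: 4.95 and 0 in Q344X, against 56.2 and 8.02 in WT (log2 fold change -3.22 ± 1.20 SE, adjusted p = 0.121, limma), with the WT libraries far apart.

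The 58 members with means between 2 and 10 were not tested above. In 18 of them both Q344X libraries were below both WT libraries, in 14 both were above, and in 26 the groups overlapped. The share of such separation over all genes was not counted, so these counts are no result about the members. When the minimum mean was set to 2, all 143 members entered, with 19 lower (13.3%) and 5 higher (3.5%), beside 7.25% and 4.33% over all genes so tested. At that minimum the ratio fell in 23 (16.3%) and rose in 6 (4.26%) of 141 pairs, beside 11.4% and 6.22% over all 3889 opposite-strand pairs. The members added were Ube4bos2, Mettl5os and Plekhd1os on the lower side and Trpc5os and Unc45bos on the higher side. Each of these 5 reached the minimum mean of 2 through the genotype in which it is high, its mean in the other genotype being under 1, so the filter itself favours the difference. Trpc5os, listed as protein coding, had 11.9 and 6.72 in Q344X, against 0 and 0 in WT, at least 6.07-fold higher with 3 reads over the WT group as the floor. Unc45bos had 4.95 and 5.76 in Q344X, against 0 and 0 in WT, at least 3.50-fold higher by the same floor, beside the rise of Unc45b, and 19.5% of its exonic bases lie under Unc45b exons. Mettl5os had 0 and 1.92 in Q344X, against 9.36 and 20.1 in WT, and Plekhd1os had 1.98 and 0 in Q344X, against 13.5 and 12.03 in WT.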

How the data were processed

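Retinal RNA was measured in 4 libraries (2 Q344X, 2 WT), grouped by the labels. STAR, featureCounts, DESeq2 1.16.1, Trim Galore 0.4.4, FastQC and the build mm10 are named, without roles, per the submitters' processing notes; the sources used here give neither annotation nor strand setting. The deposited values are a signal, gene counts divided by the authors' size factors. Every value was a whole multiple of 1 read in its column (100% within 0.1), but 2 columns did not pass the check of recovered reads, so no count model was fitted.

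Symbols, positions and lengths came from the tables of GENCODE M21 (GRCm38), and promoters from RefSeq (GRCm38.p6). The test was limma 3.58.1 in R 4.3.3 on log2(normalized count + 1), two-sided, with a mean-dependent prior variance (3.90 prior and 2 residual degrees of freedom), a minimum mean of 10 and Benjamini-Hochberg adjustment over 16833 genes, or over 2410 opposite-strand pairs for ratios; fold changes on this scale understate the change of low genes. A permutation of 2 against 2 libraries cannot give p below 0.333. The design text counts 2 animals per group, but no label ties a library to an animal, so p-values reflect how far these libraries differ, which may be technical. Replicate numbers were given here in accession order.

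The members, gene lists and tests were chosen with earlier results of these data known. Named in full were called members (at most 20), the 8 with the highest means and those facing a listed eye transcription factor with a mean of at least 10; some genes picked by these rules are not reported here. Alternatives were pseudocounts of 0.5 and 5, minimum means of 2 and 50, no filter, quantile normalization, 75th percentile scaling, robust moderation and leaving out each library.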

Additional observations from a re-analysis of the deposited data

How the results depend on the processing

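No paired analysis was made, because the labels carry no replicate numbers and state no pairs, and the numbers used here follow accession order. The library titles carry running numbers that alternate between WT and Q344X in that same order. No label says whether these numbers mark pairs or batches. Some genes moved alike from replicate 1 to 2 in both genotypes. Snhg11, a long noncoding RNA, had 12502 and 3410 in Q344X and 13966 and 4518 in WT. Cebpzos had 373 and 694 in Q344X and 425 and 606 in WT. Others did not, such as Rbm3, with 3543 and 5354 in Q344X and 1875 and 1664 in WT. The unpaired test counts such shifts as spread within groups, and a shared batch was not tested. The 16 members lower became 8 with a minimum mean of 50, which tests fewer members, and 8 with no filter. The 3 higher became 5 with a minimum mean of 2, 1 with a minimum mean of 50 and 0 with no filter (limma; 16 at an unadjusted p under 0.05). The 5 sense genes lower became 3 with a minimum mean of 2, 1 with no filter and 9 under 75th percentile scaling, and the 5 higher became 1 with no filter. The 18 ratios lower became 8, and the 4 higher 1, with a minimum mean of 50. Leaving out 1 library gave between 10 and 23 members lower and 1 and 7 higher, 1 and 15 sense genes lower and 2 and 16 higher, and 15 and 21 ratios lower and 2 and 9 higher. The cause of these moves was not tested. Beyond the calls given as lost without 1 library, no filter ended those of Otx2os1, Pax6os1, Dbhos, Med9os, Dhrs13os, Map2k3os, Atad3aos, Stamos, Etaa1os, Ppp1r18os and Tmem74bos (adjusted p between 0.0597 and 0.103, fold changes as reported). Quantile normalization ended those of Etaa1os (0.0567), Stamos (0.0660), Ppp1r18os (0.0513), Prox2 (0.0692) and Hk1 (0.0581), and a pseudocount of 0.5 that of Etaa1os (0.0516). A minimum mean of 2 ended those of Prox2 (0.0502), Hk1 (0.0520) and the ratios of Rab26os (0.0762) and Ppp1r18os (0.0958), and a minimum mean of 50 that of Prox2 (0.0531).

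Signs turned only in values short of the threshold. Under quantile normalization Abhd11os became 0.058, Hk1os 0.15, Rbm3os 0.12, Crx 0.15 and Prox1 -0.026; under 75th percentile scaling Cebpzos became -0.054 and Prox1 -0.040. Leaving out 1 library gave log2 fold changes between -0.064 and 0.22 for Six3os1, -0.44 and 0.45 for Cebpzos, -0.10 and 0.31 for Prox1os, -0.39 and 0.14 for Abhd11os, -0.018 and 0.37 for Lrp8os2, -0.69 and 0.62 for Hk1os, and -0.47 and 0.26 for Rbm3os. For sense genes they lay between -0.21 and 0.80 for Vax2, -0.024 and 0.68 for Six3, -0.16 and 0.13 for Slc7a6, -0.16 and 0.0062 for Crx, -0.083 and 0.047 for Ube4b, -0.19 and 0.23 for Prox1, -0.43 and 0.017 for Med9, -0.43 and 0.23 for Zeb2, -0.29 and 0.47 for Dhrs13, and -0.25 and 0.056 for Map2k3. At about 1 normalized count per read, members under 10 rest on a handful of reads per library.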

Other observations

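Long noncoding RNAs outside the naming rule were described from a list of 32, of which 30 were in the table and 1, Epb41l4aos, is itself a member. Of the others, 27 were tested, with 1 lower, 3 higher and a median log2 fold change of -0.18, beside 9.1% lower and 5.46% higher over all genes tested. Neat1, the scaffold RNA of paraspeckles, had 292 and 159 normalized counts in Q344X, against 1063 and 620 in WT (log2 fold change -1.91, adjusted p = 0.0303, limma). Mir9-3hg, a host gene of the neural microRNA miR-9, had 84.2 and 89.3 in Q344X, against 31.2 and 26.1 in WT (log2 fold change 1.57, adjusted p = 0.0237, limma). Snhg1, a host gene of small nucleolar RNAs, had 894 and 859 in Q344X, against 468 and 476 in WT (log2 fold change 0.89, adjusted p = 0.0280, limma). The imprinted RNA H19 had 74.3 and 81.6 in Q344X, against 22.9 and 28.1 in WT (log2 fold change 1.58, adjusted p = 0.0254, limma). Malat1, the most abundant of the list, had 29184 and 23156 in Q344X, against 41819 and 31973 in WT, and did not pass (adjusted p = 0.192, limma).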
